A study of Mus musculus with 8 samples.

Results

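Mature absorptive colonocyte barcodes were taken from fixed colon tissue of C57BL/6 mice by the RNA they carried. A barcode stands for the RNA caught in 1 droplet of a single-cell run, and its depth is the number of UMIs (unique molecular identifiers, 1 per counted RNA molecule). A barcode entered the selection with at least 100 UMIs, under 25% haemoglobin UMIs and under 50% mitochondrially encoded UMIs, which 1403 barcodes did. It was a member when 11 absorptive genes (Slc26a3, Car1, Car4, Aqp8, Ceacam20, Guca2a, Slc51b, Cyp2c55, Dpep1, Mep1a and Krt20) gave at least 3 UMIs together, when those UMIs were no fewer than the UMIs of 8 crypt-type genes (Ybx2, Myb, Hao2, Fam3d, B3gnt7, Slc20a1, Casd1 and Acly), and when 4 mucus genes (Muc2, Fcgbp, Clca1 and Zg16) gave under 5 UMIs. This found 289 members, 20.6% of the 1403 barcodes, out of 2632 barcodes with at least 100 UMIs and 8588 barcodes in all. These 3 gene sums chose the members, so their levels are given as a description and carry no test.

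Mice of the fish oil/pectin group (n = 4) and of the corn oil/cellulose group (n = 4) ate their diet for 3 weeks. Colons were rolled, fixed and embedded in paraffin, and 1 library per mouse was made from 2 cut sections, each 50 µm thick. Both diets carry a fat and a fibre, so the effect of the oil and that of the fibre cannot be told apart, and no genetic change is named for either group. A fixed-tissue probe assay was used, in which pairs of gene-specific probes are counted in place of the RNA itself. Age and sex were not given in the sources used here, and the replicate libraries are labelled as separate biological replicates. The title of the series places the question in ferroptosis of colonocytes, an iron-dependent cell death driven by oxidised membrane lipids.

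Absorptive colonocytes line the surface of the colon and the mouths of its crypts. They arise from dividing cells at the crypt base, mature while moving up, and are shed into the lumen within days. At the surface they exchange chloride for bicarbonate, take up sodium, water and short-chain fatty acids, and hydrate carbon dioxide with carbonic anhydrases, and pectin is a fibre that gut bacteria ferment to such acids.

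Promoters are printed for the 3 genes with the most selecting UMIs and for Slc13a2, the gene of smallest p between diets outside the rule. Each line is the 250 bases before the RefSeq start of transcription in build GRCm38.p6, 5′ to 3′ on the strand of the gene. The windows are chr12:31437969-31438218 (plus strand) for Slc26a3, chr11:84957504-84957753 (plus) for Car4, chr7:123462044-123462293 (plus) for Aqp8 and chr11:78422235-78422484 (minus) for Slc13a2. Capitals mark matches, on either strand, to the TATA box motif TATAAA. The windows were also searched for a CDX factor motif (TTTATG), an HNF4 motif (CAAAGTC) and a GATA factor motif (AGATAA).

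Slc26a3: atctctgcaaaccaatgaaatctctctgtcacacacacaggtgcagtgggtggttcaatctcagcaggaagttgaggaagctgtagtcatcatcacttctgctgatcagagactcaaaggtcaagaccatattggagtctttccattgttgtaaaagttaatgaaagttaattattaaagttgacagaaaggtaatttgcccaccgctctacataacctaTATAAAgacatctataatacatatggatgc

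Car4: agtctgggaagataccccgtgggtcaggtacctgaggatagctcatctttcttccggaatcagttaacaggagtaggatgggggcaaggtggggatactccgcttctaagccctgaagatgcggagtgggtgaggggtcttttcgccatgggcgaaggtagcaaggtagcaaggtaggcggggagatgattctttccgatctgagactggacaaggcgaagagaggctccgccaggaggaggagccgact

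Aqp8: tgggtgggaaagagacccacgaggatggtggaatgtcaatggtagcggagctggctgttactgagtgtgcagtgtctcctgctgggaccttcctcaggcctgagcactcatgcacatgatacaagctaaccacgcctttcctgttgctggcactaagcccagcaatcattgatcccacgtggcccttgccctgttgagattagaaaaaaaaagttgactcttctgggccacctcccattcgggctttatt

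Slc13a2: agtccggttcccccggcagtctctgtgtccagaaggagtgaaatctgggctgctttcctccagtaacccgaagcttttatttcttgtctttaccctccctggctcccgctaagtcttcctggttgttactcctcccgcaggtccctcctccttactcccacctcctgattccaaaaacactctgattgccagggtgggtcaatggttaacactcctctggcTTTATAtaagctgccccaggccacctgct

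Among these windows, Slc26a3 held TATAAA from 30 to 25 bases before the start and Slc13a2 held it on the other strand from 29 to 24 bases before the start, while the windows of Car4 and Aqp8 held none of the 4 motifs. Of the 11 absorptive genes, 10 had a promoter entry, and TATAAA stood in 3 of them (Slc26a3, Cyp2c55 and Krt20), as in 12.4% of 32851 promoters of this length. AGATAA stood in 3 of the 10 (Guca2a, Cyp2c55 and Krt20) and in 9.99% of all promoters. TTTATG and CAAAGTC stood in 0 of the 10, against 10.8% and 3.84% of all promoters. A match describes letters in a window and does not show that a factor binds there.

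Members were unevenly spread over the mice. Fish oil/pectin mice 1 to 4 gave 6, 25, 18 and 96 members, and corn oil/cellulose mice 1 to 4 gave 5, 29, 21 and 89. In each group mouse 4 gave more members than the other mice of the group together. The share of passing barcodes that were members was 8.11%, 11.8%, 22.0% and 37.4% in fish oil/pectin mice 1 to 4, against 2.76%, 13.6%, 25.9% and 29.4% in corn oil/cellulose mice 1 to 4. The groups overlapped across nearly their whole ranges. The share averaged 19.8% ± 13.1 in fish oil/pectin mice and 17.9% ± 12.2 in corn oil/cellulose mice (SD, n = 4 each), a difference of 1.91 percentage points (two-sided exact permutation p = 0.857, 0.9 after Benjamini-Hochberg adjustment over 5 measures of the members). In sections that pass through fixation and dissociation, fewer cells of a type and less RNA per cell cannot be told apart.

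**Figure D1:**
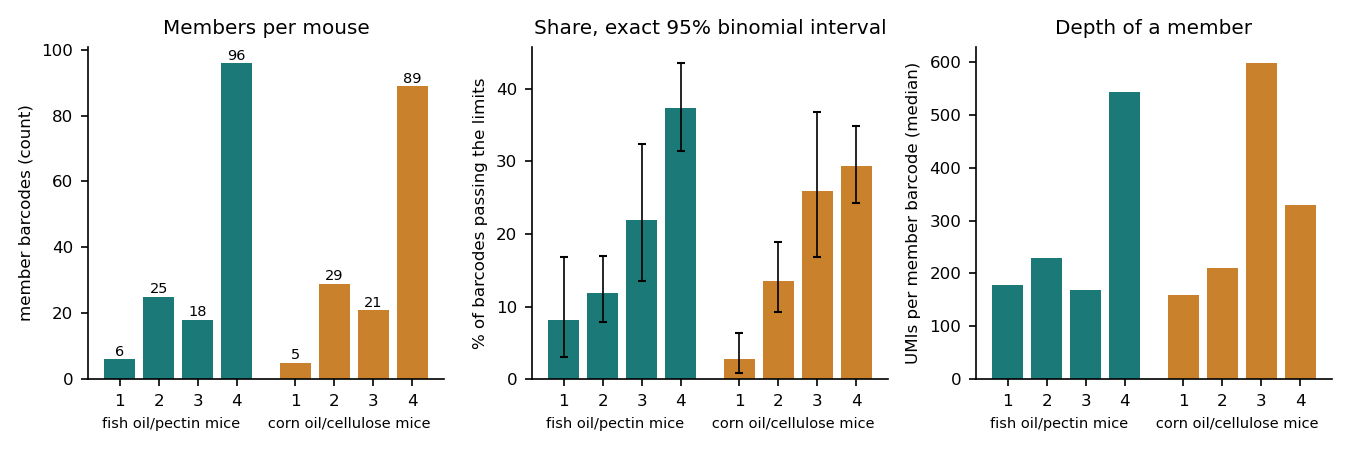
Counts of member barcodes (left), their share of the barcodes passing the limits in percent with exact 95% binomial (Clopper-Pearson) intervals (middle) and median UMIs per member (right), 1 bar per mouse, fish oil/pectin mice 1 to 4 and corn oil/cellulose mice 1 to 4. Mouse 4 of each diet holds the most members, 96 and 89, and the median depth reaches 544 UMIs in fish oil/pectin mouse 4 and 599 in corn oil/cellulose mouse 3.

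The libraries held from 34758 to 245476 UMIs in from 106 to 5180 barcodes each, and members carried 147186 of all 1160832 UMIs. Member UMIs summed to 1161, 5786, 3983 and 73776 in fish oil/pectin mice 1 to 4 and to 796, 7230, 13690 and 40764 in corn oil/cellulose mice 1 to 4, so fish oil/pectin mouse 4 alone held 50.1% and corn oil/cellulose mouse 4 held 27.7% of them. The shallowest member had 348 UMIs in fish oil/pectin mouse 4, 347 in corn oil/cellulose mouse 3 and 205 in corn oil/cellulose mouse 4, against 100 to 143 in the other mice. Depth thus varied widely within each diet. Mitochondrially encoded UMIs made up 3.36%, 16.8%, 14.9% and 5.65% of member UMIs in fish oil/pectin mice 1 to 4, against 9.80%, 5.59%, 17.4% and 6.56% in corn oil/cellulose mice 1 to 4. The labels name no run pool. Droplet barcodes shared between libraries were used to infer a first pool of fish oil/pectin mouse 1 with corn oil/cellulose mice 1, 2 and 3, and a second of fish oil/pectin mice 2, 3 and 4 with corn oil/cellulose mouse 4. Each pool was required to hold libraries with different sample barcodes, and the split with the most droplet barcodes shared within pools was taken. Pairs of libraries within the inferred pools shared 189 droplet barcodes and pairs between them 24, a contrast that follows from this choice and is no check of it. Raw counts do not sort every pair, and they were not scaled to the number of barcodes in a library. Fish oil/pectin mouse 2 and corn oil/cellulose mouse 1 (969 and 5180 barcodes), placed apart, shared 8. Corn oil/cellulose mice 2 and 3 (448 and 106 barcodes), placed together, shared 1. Inferred pool and diet are partly confounded, and no fish oil/pectin mouse with at least 10 members is in the first pool. Of the members, 18 shared a droplet barcode with a barcode of another library of the same inferred pool, in 0 cases with another member.

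The leading selecting genes were those of surface ion and water transport. Car4, a membrane-bound carbonic anhydrase, gave 767 UMIs, 29.9% of the absorptive sum, and was seen in 69.9% of members. The same gene was seen in 0.70% of haemoglobin-led barcodes (at least 100 UMIs, 25% or more haemoglobin), which should lack it and serve as background, with a median of 290 UMIs against 381 in members. Slc26a3, the chloride and bicarbonate exchanger of the apical membrane, gave 573 UMIs in 58.1% of members and was seen in 0.50% of haemoglobin-led barcodes. Aqp8, a water channel, gave 384 UMIs in 46.0%. Ceacam20, a brush border membrane protein, gave 236, Car1, a cytosolic carbonic anhydrase, 223 and Krt20, a keratin of surface cells, 203. Car1 was seen in 28.0% of members and in 4.02% of haemoglobin-led barcodes, the highest such background of the 11 genes. It stood at 15.2 per 10000 UMIs in members, 1.63 in haemoglobin-led barcodes and 17.1 in goblet barcodes (mucus sum of 5 or more). Krt20 was seen in 40.1% of members and 38.9% of goblet barcodes, so neither gene was particular to members. Mep1a, a membrane protease, gave 78, and Cyp2c55, Dpep1, Guca2a and Slc51b gave 51, 25, 14 and 11 UMIs, so Guca2a, Slc51b and Dpep1 hardly took part in the selection.

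The level of Car1 varied across mice unlike those of Slc26a3 and Car4. Its UMIs per 10000 member UMIs were 68.9, 175, 75.3 and 4.20 in fish oil/pectin mice 1 to 4, against 50.3, 8.30, 8.04 and 7.85 in corn oil/cellulose mice 1 to 4. Fish oil/pectin mouse 4, which held the most member UMIs, lay below every corn oil/cellulose mouse, and mice 1 to 3 of its group lay above all of them. Slc26a3 stood at 25.8, 8.64, 20.1 and 48.4 in fish oil/pectin mice 1 to 4 and at 50.3, 36.0, 23.4 and 33.9 in corn oil/cellulose mice 1 to 4. It was lowest in fish oil/pectin mouse 2, where Car1 was highest. Car4 was also lowest among mice with at least 10 members in fish oil/pectin mouse 2, at 15.6, against 33.6 to 72.8 in the other 5. Some of the rarer selecting genes were also higher in fish oil/pectin mouse 2 or 3 than in mouse 4. Cyp2c55 had 10, 0 and 17 UMIs in fish oil/pectin mice 2, 3 and 4 (17.3, 0 and 2.30 per 10000), and Slc51b had 3, 5 and 2 (5.18, 12.6 and 0.27 per 10000).

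**Figure D2:**
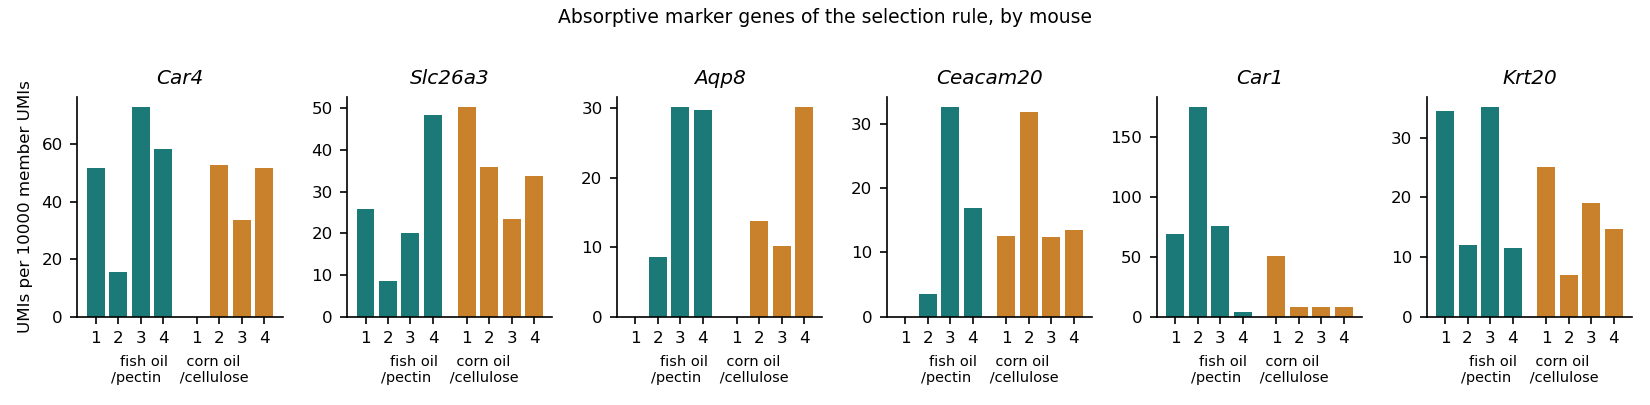
UMIs per 10000 member UMIs of 6 absorptive genes of the selection rule, 1 bar per mouse, fish oil/pectin mice 1 to 4 on the left and corn oil/cellulose mice 1 to 4 on the right of each panel, on separate vertical scales. Car1 reaches 175 in fish oil/pectin mouse 2, where Slc26a3 (8.64) and Car4 (15.6) are low.

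Counted by barcode, 199 of 289 members (68.9%) held a UMI of Slc26a3, Car4, Aqp8 or Ceacam20 and none of Car1, and 58 held both. Another 23 held Car1 and none of those 4 genes, and 9 held neither. Of the 23 members with Car1 and none of the 4, 11 came from fish oil/pectin mouse 2. Members whose Car1 UMIs exceeded those of the other 10 absorptive genes together made up 56.0%, 22.2% and 0% of members in fish oil/pectin mice 2, 3 and 4, against 6.90%, 0% and 3.37% in corn oil/cellulose mice 2, 3 and 4. The group means were 26.1% ± 28.2 and 3.42% ± 3.45 (SD, n = 3 each), and since Car1 is part of the rule this is a description. In fish oil/pectin mouse 2, the same mouse, 11 of 25 members also held a UMI of at least 1 of 9 ileal genes. There Fabp6, the ileal bile acid binding protein, gave 12 UMIs, Reg3b, an antimicrobial lectin, 11 and Fabp2, a fatty acid binding protein, 8, while Fabp6 was at 0 in the members of the other 7 mice. Goblet barcodes of that mouse held 48 UMIs of Fabp6. Apoa1, Apoa4, Sis and Lct, listed as small intestinal genes, and Fabp1, listed for the proximal colon as well, were at 0 in all 289 members. Fabp1 was also at 0 in all goblet and haemoglobin-led barcodes, so its zero says little about the members. Whether the roll of that mouse held tissue of the ileum was not tested.

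The strength of the call varied. The absorptive sum was 3 in 64 members and 4 in 48, and 10 or more in 80. Just outside the rule, 92 barcodes had a sum of 2 and met every other condition. The mucus limit left out 90 barcodes with an absorptive sum of 3 or more, and another 22 were left out because the crypt-type sum was larger. No crypt-type UMI was present in 106 members (36.7%), and the crypt-type and absorptive sums were equal in 7. Slc20a1, a phosphate transporter that the rule counts as crypt-type, had 450 UMIs in members, 30.6 per 10000, above its 24.2 per 10000 in crypt-type barcodes, so this gene did not separate the populations. Myb, a transcription factor of dividing crypt cells, had 0 UMIs in members, which allows up to 0.204 per 10000, against 6.36 in crypt-type barcodes.

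Genes outside the rule were checked against the label. All 12 pan-epithelial markers had a UMI in members, with a summed level of 167 per 10000, against 5.12 in haemoglobin-led barcodes, and in single mice the sum ran from 103 to 203 under fish oil/pectin and from 138 to 206 under corn oil/cellulose. The leading genes were Myo15b, an unconventional myosin gene, at 110 per 10000, Muc13, a membrane mucin, at 45.5, Atp1b1, a sodium pump subunit, at 41.2, Txnip at 38.9, Mxd1 at 38.3 and Saa1 at 37.1, and these 6 stood between 0.35 and 1.57 in haemoglobin-led barcodes. In goblet barcodes Myo15b stood at 78.7, Mxd1 at 30.9 and Saa1 at 47.0, so the leading genes were not particular to members. Such levels in counts per UMI compare a gene between barcode types, not one gene with another. Markers of the distal colon were present, with Prdx6 at 20.5, Tgm3 at 20.1 and Atp12a, the colonic proton and potassium pump, at 19.4 per 10000, and a proximal marker, Slc37a2, at 22.3. Lgr5, the stem cell receptor, and Mki67, a proliferation marker, had 0 UMIs, as had all 14 T and NK cell markers. In all crypt-type barcodes Lgr5 had 1 UMI, Mki67 5 and the T and NK markers 0, so these zeros do little to separate the types. Of 25 crypt base and cycling markers in the files 12 had a UMI, and together they stood at 2.85 per 10000 in members and at 21.6 in crypt-type barcodes. Fibroblast markers summed to 143 UMIs and smooth muscle markers to 103, of which 31 were in fish oil/pectin mouse 2, and 32 members held at least 3 stromal or immune UMIs.

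The diets were compared gene by gene on member UMIs summed per mouse, in the 6 mice with at least 10 members (mice 2, 3 and 4 of each diet, 278 members). Of 9989 genes with a UMI in a member, 294 passed the filter on low counts, and edgeR's quasi-likelihood test called 0 of them at an adjusted p under 0.05 (0% of genes tested). The filter keeps a gene that reaches a set level in at least 3 mice, so a gene can pass through the mice of 1 diet alone. At an unadjusted p under 0.05 there were 14, which is 4.76% of the 294, and DESeq2 called 1, Car1, a gene of the rule. The genes of smallest p outside the rule were Slc13a2, Clec2h and Ceacam1, all higher under fish oil/pectin, and Serpinb1a, lower under fish oil/pectin. Without the rule, haemoglobin and mitochondrially encoded genes in the table, 254 genes were tested and Slc13a2, Clec2h and Ceacam1 passed. Over the 294 genes limma-voom called 0.

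Slc13a2 (ENSMUSG00000001095), whose promoter is printed above, encodes a sodium-coupled carrier of citrate and other dicarboxylates (gene at chr11:78397087-78422217, minus strand, GRCm38). It had 5, 3, 5 and 43 UMIs in fish oil/pectin mice 1 to 4, against 0, 1, 0 and 4 in corn oil/cellulose mice 1 to 4. Per 10000 member UMIs this was 43.1, 5.18, 12.6 and 5.83, against 0, 1.38, 0 and 0.981. Every fish oil/pectin mouse lay above every corn oil/cellulose mouse, on very few molecules outside mouse 4. The gene passed the low-count filter through the 3 fish oil/pectin mice of the fit alone, so the separation of the 6 mice follows from the filter. The log2 fold change over the 6 mice was 3.16 ± 0.88 (SE), with a Benjamini-Hochberg adjusted p of 0.129 in edgeR's quasi-likelihood test. The gene was seen in 13.8% of members and 0.10% of haemoglobin-led barcodes. In goblet barcodes of fish oil/pectin mice 2, 3 and 4 it had 4, 2 and 8 UMIs, against 0, 7 and 4 in those of corn oil/cellulose mice 2, 3 and 4.

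Clec2h (ENSMUSG00000030364) encodes a C-type lectin-like protein of the intestinal epithelium (chr6:128662385-128677374, plus strand), and it belongs to a family of similar genes between which probe counts may not separate fully. Its UMIs were 6, 5, 6 and 116 in fish oil/pectin mice 1 to 4, against 0, 4, 4 and 7 in corn oil/cellulose mice 1 to 4. Per 10000 these were 51.7, 8.64, 15.1 and 15.7, against 0, 5.53, 2.92 and 1.72, and the groups did not overlap. The log2 fold change was 2.34 ± 0.66 (SE), with an adjusted p of 0.129 by edgeR's quasi-likelihood test. The summed level of 29 ileal and small intestinal markers in the files, to which Clec2h belongs, was 67.4, 37.7 and 21.6 per 10000 in fish oil/pectin mice 2, 3 and 4, against 8.30, 6.57 and 7.60 in corn oil/cellulose mice 2, 3 and 4. Most of this sum in fish oil/pectin mouse 4 was Clec2h itself. Without Clec2h the list stood at 58.8, 22.6 and 5.83 in fish oil/pectin mice 2, 3 and 4, against 2.77, 3.65 and 5.89 in corn oil/cellulose mice 2, 3 and 4, and the groups overlapped. Without the members that held an ileal UMI the log2 fold change of Clec2h was 2.10. With the inferred pool in the fit it was 3.02, which rests on 3 fish oil/pectin mice against corn oil/cellulose mouse 4 alone. In goblet barcodes Clec2h stood at 11.5, 30.6 and 34.4 per 10000 in fish oil/pectin mice 2, 3 and 4, against 15.0, 4.84 and 16.5 in corn oil/cellulose mice 2, 3 and 4, and these groups overlapped.

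Ceacam1 (ENSMUSG00000074272), an adhesion receptor of surface epithelium (chr7:25461707-25477603, minus strand), had 4, 12, 11 and 136 UMIs in fish oil/pectin mice 1 to 4, against 0, 3, 6 and 38 in corn oil/cellulose mice 1 to 4. Per 10000 the 6 mice tested stood at 20.7, 27.6 and 18.4 under fish oil/pectin, against 4.15, 4.38 and 9.32 under corn oil/cellulose. The lowest fish oil/pectin mouse was above the highest corn oil/cellulose mouse. The log2 fold change was 1.86 ± 0.54 (SE, edgeR quasi-likelihood adjusted p = 0.129). It was 0.93 within the second inferred pool, where 3 fish oil/pectin mice face 1 corn oil/cellulose mouse. With the inferred pool in the fit it was 1.31, and there the diet difference rests on those same mice. Slc4a2, an anion exchanger, had 6, 5 and 49 UMIs in fish oil/pectin mice 2, 3 and 4, against 1, 3 and 13 in corn oil/cellulose mice 2, 3 and 4, with a log2 fold change of 1.89 ± 0.66 (SE, adjusted p = 0.375). Phgr1, an epithelial gene, had a log2 fold change of 1.74 ± 0.68 and its groups overlapped. Leaving out fish oil/pectin mouse 2 gave 0.49 for Phgr1, and leaving out corn oil/cellulose mouse 4 gave 2.78.

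**Figure D3:**
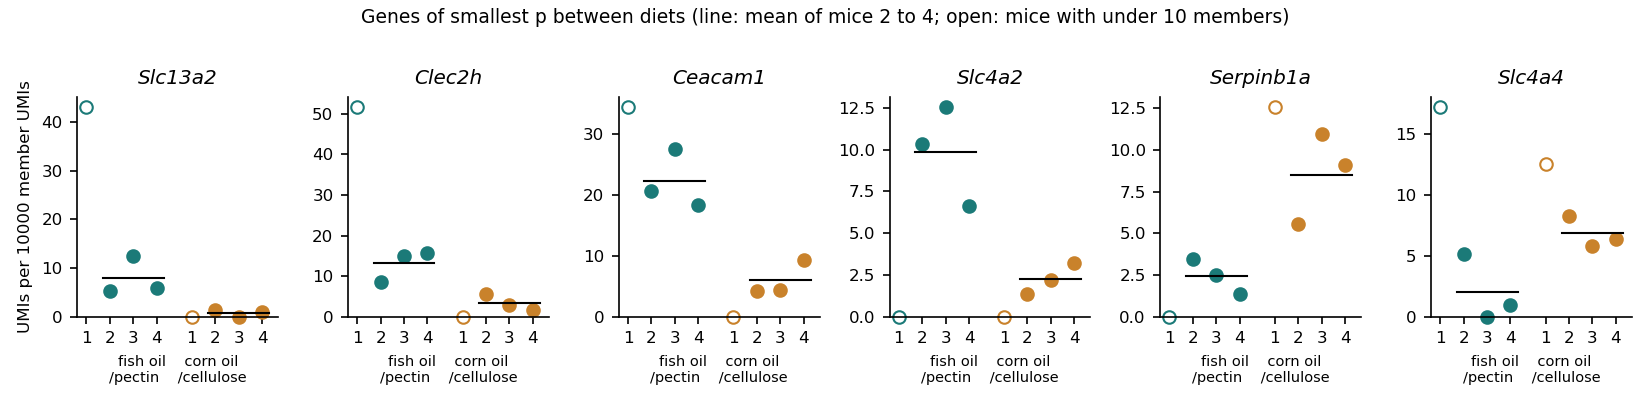
UMIs per 10000 member UMIs of 6 genes of small p between diets, 1 point per mouse, fish oil/pectin mice 1 to 4 left of corn oil/cellulose mice 1 to 4. Lines are means of mice 2 to 4, and open points are the mice with 6 and 5 members, which the fit leaves out. The filled points of the groups do not overlap in any of the 6 panels, and no gene passed the adjusted threshold. For Slc13a2, Slc4a2 and Serpinb1a this separation follows from the low-count filter. Phgr1, whose p lies between those of Slc4a2 and Slc4a4, is not drawn, and its groups overlap. Of all 294 genes, 8 were without overlap and higher under fish oil/pectin (2.72%), and 28 were without overlap and lower (9.52%).

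Serpinb1a, an inhibitor of leukocyte proteases, had 0, 2, 1 and 10 UMIs in fish oil/pectin mice 1 to 4, against 1, 4, 15 and 37 in corn oil/cellulose mice 1 to 4. Its level averaged 2.44 ± 1.05 per 10000 under fish oil/pectin and 8.52 ± 2.75 under corn oil/cellulose (SD, n = 3 each), with no overlap between the groups. The gene passed the low-count filter through the corn oil/cellulose mice alone, so that separation follows from the filter. The log2 fold change was -2.13 ± 0.73 (SE, edgeR quasi-likelihood adjusted p = 0.375), and -1.25 when fish oil/pectin mouse 4 was left out. Slc4a4, a sodium bicarbonate cotransporter, had 2, 3, 0 and 7 UMIs in fish oil/pectin mice 1 to 4, against 1, 6, 8 and 26 in corn oil/cellulose mice 1 to 4, with a log2 fold change of -2.04 ± 0.83 (SE, edgeR quasi-likelihood adjusted p = 0.746). Fish oil/pectin mouse 1, which the fit leaves out, stood at 17.2 per 10000, above every corn oil/cellulose mouse (5.84 to 12.6). Among the other genes of smallest p with negative fold changes were Plec, a cytoskeletal linker, at -1.12 ± 0.53, Trpv3, a cation channel, at -1.35 ± 0.64, and Mif4gd, Dnajc5 and Prss32, from -1.71 to -1.13. By edgeR's quasi-likelihood test the adjusted p was 0.980 for Mif4gd and Dnajc5 and 0.995 for Plec, Trpv3 and Prss32. Mif4gd and Dnajc5 passed the low-count filter through the corn oil/cellulose mice alone, so their separation follows from the filter.

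Over all 294 genes, the 3 mice of one diet did not overlap with the 3 of the other in 8 genes that were higher under fish oil/pectin (2.72%) and in 28 that were lower (9.52%). A gene that passed the low-count filter through 1 diet alone, as Slc13a2, Slc4a2, Serpinb1a, Mif4gd and Dnajc5 did, cannot overlap. These counts are thus partly set by the filter and are no support for a difference between diets. For the 6 genes of smallest p in the same data, outside the rule and mitochondrially encoded genes, the mean level was also compared with a two-sided exact permutation test. With 3 mice against 3 the smallest possible p is 0.1, which Slc13a2, Clec2h, Ceacam1, Slc4a2 and Serpinb1a reached (0.12 adjusted over the 6), and Phgr1 gave an exact p of 0.2. With all 8 mice the exact p was 0.0286, the smallest that 4 against 4 allow, for Slc13a2, Clec2h, Ceacam1 and Serpinb1a (0.0429 adjusted over the 6), 0.143 for Slc4a2 and 0.114 for Phgr1. Those p-values are not independent evidence, since the genes were chosen by their p between these mice and some were separated by the filter. Mouse 1 of each diet rests on 6 and 5 members.

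Gene lists were described by counts alone. Of 27 other surface colonocyte genes, which include Slc13a2 and Clec2h, 13 could be tested, 9 had a fold change above 0 and 4 below, and 0 passed, with a median log2 fold change of 0.76 against -0.04 over all 294 genes. Scaled by library size alone, 8 of the 13 lay above 0. All 6 tested immediate early and heat shock genes of 26 listed had fold changes below 0, from -0.98 for Fosl2 to -0.42 for Klf6, with a median of -0.76, and 0 passed. Among all 294 genes, 156 lay below 0. The summed level of that list was 27.7, 60.3 and 47.7 per 10000 in fish oil/pectin mice 2, 3 and 4, against 129, 105 and 68.0 in corn oil/cellulose mice 2, 3 and 4, and the groups did not overlap. Corn oil/cellulose mice 2 and 3 are in the first inferred pool. Mouse 4 of that diet, at 68.0, is the only one in the pool of these fish oil/pectin mice, so diet and inferred pool cannot be told apart here. Zfp36, which speeds the decay of mRNA, had 2, 1 and 59 UMIs in fish oil/pectin mice 2, 3 and 4, against 7, 21 and 36 in corn oil/cellulose mice 2, 3 and 4, and did not overlap between diets per 10000 UMIs. These genes respond to handling of tissue as well as to signals in it, and their part in other results was not tested. Of 37 brush border, junction and keratin genes 18 were tested, 11 above and 7 below 0, with a median of 0.02, and scaled by library size alone 8 lay above and 10 below.

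Genes of lipid, iron and peroxide handling were mostly below the depth needed. Of 25 ferroptosis suppressors 23 had a UMI in members but 3 could be tested, and of 31 ferroptosis drivers 22 had a UMI and 1 could be tested, with 0 called in either list. Fth1, the ferritin heavy chain that stores iron, had 119 UMIs in all, at 6.91, 10.0 and 5.96 per 10000 in fish oil/pectin mice 2, 3 and 4, against 8.30, 6.57 and 12.3 in corn oil/cellulose mice 2, 3 and 4. The groups overlapped, with a log2 fold change of -0.28. Acsl3, which activates fatty acids, had a log2 fold change of -1.09, Prdx6, a lipid peroxide-reducing peroxiredoxin, one of 0.62, and Sat1, a polyamine-degrading enzyme of the driver list, one of -0.87. Acsl4, the acyl-CoA synthetase that loads membranes with polyunsaturated fatty acids, had 2 UMIs in all members, the transferrin receptor Tfrc 3 and the cystine transporter Slc7a11 0, which allows up to 1.04% of members to hold a UMI. Differences between diets in these 3 genes were not detectable at this depth. Of 17 genes of short-chain fatty acid and ketone handling 14 had a UMI and 0 could be tested, and Slc16a1, a carrier of short-chain acids, had 35 UMIs.

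A test of whether the diet difference itself differed between members and goblet barcodes (mucus sum of 5 or more, 208 barcodes) called 0 of 768 genes, with 5 at an unadjusted p under 0.05 (0.651%), by edgeR's quasi-likelihood test. The interaction was 1.59 ± 1.27 on the log2 scale for Slc13a2, 1.20 ± 0.78 for Clec2h and 0.67 ± 0.68 for Ceacam1 (SE). None of the 3 differences between diets was thus shown to be particular to absorptive barcodes. The same test against crypt-type barcodes could not be fitted, since 1 fish oil/pectin mouse had at least 10 of them.

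Members were set against crypt-type barcodes, those with a crypt-type sum of at least 3 that exceeded the absorptive sum and under 5 mucus UMIs (133 barcodes). Genes of the rule were left out, and the comparison ran within the 3 mice with at least 10 of both types, fish oil/pectin mouse 4 and corn oil/cellulose mice 2 and 4. Both types were picked by their RNA, so the tests below describe what else differed between barcodes picked in this way. Of 1266 genes edgeR's quasi-likelihood test called 109 (8.61%), 70 higher in members (5.53%) and 39 lower (3.08%). Scaling by library size alone in place of TMM gave 36 higher and 57 lower and moved the median log2 fold change of all genes to -0.13, from 0.09. The calls depended on single mice. Without fish oil/pectin mouse 4, 5 genes passed (Saa1, Mxd1, Myo15b, Dmbt1 and Lrrc31). Without corn oil/cellulose mouse 4, 11 passed, among them Saa1, Mxd1, Myo15b, Sprr2a3, Ern2, Kcne3, Sult1a1 and Pycard, and without corn oil/cellulose mouse 2 there were 182. DESeq2 called 12.

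Saa1 and Mxd1 passed in each alternative tried for this comparison. Saa1, a serum amyloid gene expressed in distal surface epithelium, had 172, 33 and 195 UMIs in members of fish oil/pectin mouse 4, corn oil/cellulose mouse 2 and corn oil/cellulose mouse 4, against 17, 5 and 5 in crypt-type barcodes of the same mice. It was higher in 3 of 3 mice, with a log2 fold change of 2.83 ± 0.39 (SE, edgeR quasi-likelihood adjusted p = 3.69e-10). Mxd1, a repressor that opposes Myc in maturing cells, had 311, 38 and 133 UMIs in members, against 31, 4 and 9 in crypt-type barcodes of these mice, a log2 fold change of 2.53 ± 0.36. Mxd1 was named after its values were seen. Myo15b, the leading gene, had a log2 fold change of 1.58 ± 0.25.

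Fth1, the ferritin heavy chain, had 44, 6 and 50 UMIs in members, against 4, 0 and 2 in crypt-type barcodes, a log2 fold change of 2.99 ± 0.63 (SE, adjusted p = 0.000184). Sprr2a3, a cornified envelope protein, had 114 against 6 UMIs over the 3 mice (3.18 ± 0.60), Lama3, a laminin chain, 94 against 6 (2.88 ± 0.65, higher in 2 of 3 mice), and Ptprh, a brush border phosphatase, 60 against 5 (2.67 ± 0.77). Ces2c, a carboxylesterase, had 80 against 5 UMIs (2.95 ± 0.71), Slc15a1, a peptide carrier, 73 against 5 (2.84 ± 0.71), and Slc25a20, which brings acylcarnitines into mitochondria, had a log2 fold change of 2.23 ± 0.52. Of 8 tested distal colon genes 7 lay above 0 and 4 passed (Saa1, Prdx6, Tgm3 and Atp12a), with a median of 1.41 against 0.09 over all genes. All 8 tested immediate early genes lay above 0 and 4 passed (Dusp1, Klf6, Zfp36 and Jund), with a median of 1.38. With library size alone the same 8 lay above 0 with 1 call, and 3 distal colon genes passed. Of 28 tested brush border, junction and keratin genes 24 lay above 0 (21 with library size alone), against 688 of all 1266. Cdhr5, of the microvillus tip links, and Cldn3, a claudin, passed, and 2 of 28 is near the 5.53% called higher over all genes.

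**Figure D4:**
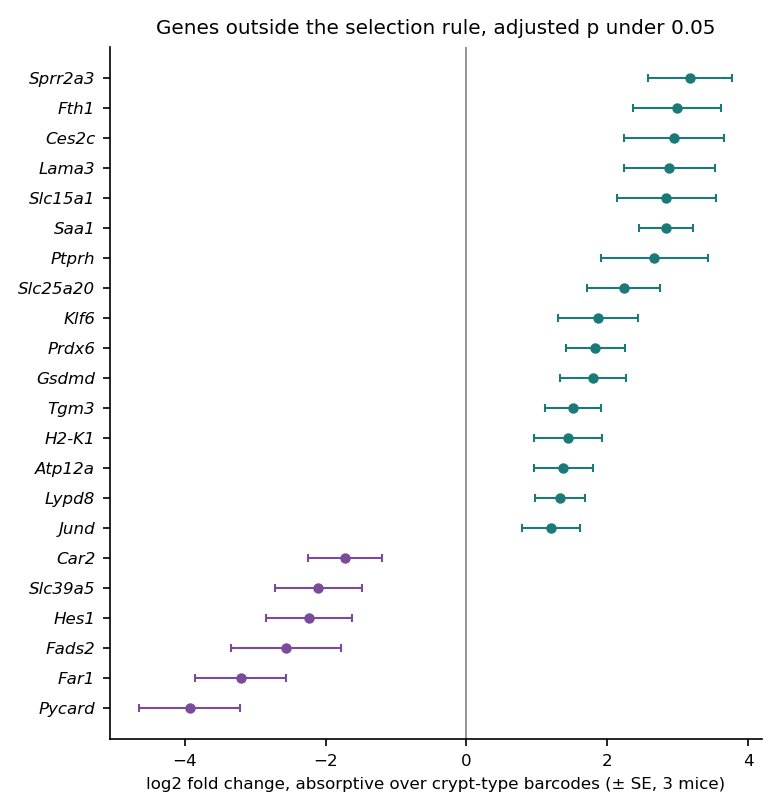
Log2 fold change with its SE for genes outside the rule, absorptive over crypt-type barcodes in 3 mice, for some of the called genes with more than 3 UMIs in each type. Fold changes run from 3.18 for Sprr2a3 to -3.93 for Pycard, and every gene shown passed the adjusted threshold of 0.05 in edgeR's quasi-likelihood test.

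Of iron handling genes, the exporter Slc40a1 stood at 4.08 per 10000 in members, 1.89 in crypt-type and 1.94 in goblet barcodes. Slc11a2, the apical iron importer, stood at 1.97, 0.41 and 0.53 there, on 29, 3 and 9 UMIs, and Fth1 at 8.09, 1.22 and 6.83. Tfrc went the other way, at 0.20, 1.76 and 0.35, on 3, 13 and 6 UMIs. These levels are pooled over all mice, without pairing. Of 23 listed iron genes 2 could be tested against crypt-type barcodes, and Fth1 passed. Fatty acid synthesis and desaturation genes other than the selecting gene Acly summed to 7.61 per 10000 in members, 25.3 in crypt-type and 7.12 in goblet barcodes. Among them Mlxipl, a carbohydrate-responsive transcription factor, had 8 UMIs in all members and 34 in all crypt-type barcodes, and Scd2, a desaturase, 10 and 26, while 1 gene of the list, Fads2, could be tested.

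Genes of cell death and defence lay on both sides. Gsdmd, a pore-forming gasdermin, was higher in members (log2 fold change 1.79 ± 0.47), as were Lypd8, an antibacterial surface protein (1.33 ± 0.35), H2-K1, a class I antigen presenting gene (1.44 ± 0.48) and Irf1, an interferon regulated factor (1.55 ± 0.53). The gasdermin C genes went the other way. Gsdmc3 had 1 UMI in members and 39 in crypt-type barcodes, a pooled ratio of 0.0146 of members to crypt-type (exact 95% interval 0.000359 to 0.0860, counting error only), and Gsdmc2 had 2 and 30 UMIs (ratio 0.0378, interval 0.00438 to 0.149). Gasdermin C genes are near-identical copies in a cluster, so counts may be split between them.

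Further genes were called lower in members. Ankle1, a nuclease gene, had 0 UMIs in members and 23 in crypt-type barcodes, at least 13.5-fold lower against a floor of 3 counts over the 3 mice. Kcne3, a potassium channel subunit of crypt cells, had 1 and 30 UMIs (ratio 0.0189, interval 0.000464 to 0.114), and Ern2, an endoplasmic reticulum stress sensor of mucous cells, 3 and 42 (ratio 0.0405, interval 0.00804 to 0.127). Pycard, the inflammasome adaptor, had 4 and 36 UMIs (-3.93 ± 0.72), Hes1, a Notch target (-2.24 ± 0.61), Far1, a fatty acyl reductase (-3.21 ± 0.65), and Fads2, a fatty acid desaturase (-2.56 ± 0.78). Of 18 tested other surface colonocyte genes 15 lay above 0 and 3 below (13 and 5 with library size alone), with a median of 0.72. Of these, 4 were called higher (Saa1, Lypd8, Slc37a2 and Plac8) and 3 lower (Car2, Sult1a1 and Gsdmc2), beside 5.53% and 3.08% of all genes. Car2, a cytosolic carbonic anhydrase, had 25, 0 and 10 UMIs in members, against 66, 1 and 6 in crypt-type barcodes, a log2 fold change of -1.73 ± 0.52.

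Members were then set against goblet barcodes of the same mouse, in 6 mice with 278 members and 201 goblet barcodes, so the number of calls does not compare with that against crypt-type barcodes. Of 369 genes edgeR's quasi-likelihood test called 14 (3.79%), 2 higher in members (0.542%) and 12 lower (3.25%). The higher ones were Ces2c, with 90 UMIs in members and 28 in goblet barcodes and higher in 6 of 6 mice (1.85 ± 0.44), and Trpv3 (1.07 ± 0.30, 5 of 6 mice). Both tested genes of the goblet list outside the rule, Agr2 and Tff3, were lower. Agr2, a disulfide isomerase of mucous cells, had 11 UMIs in members and 194 in goblet barcodes (-4.19 ± 0.45), Tff3, a trefoil peptide, 70 and 1050 (-3.37 ± 0.29), Spink1, a trypsin inhibitor, 28 and 322 (-3.13 ± 0.40) and Atp2c2, a Golgi calcium pump, 25 and 160 (-2.71 ± 0.39), each lower in 6 of 6 mice. Hsd11b2, which inactivates glucocorticoids, had 14 and 156 UMIs (-3.55 ± 0.43, 6 of 6 mice).

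**Figure D5:**
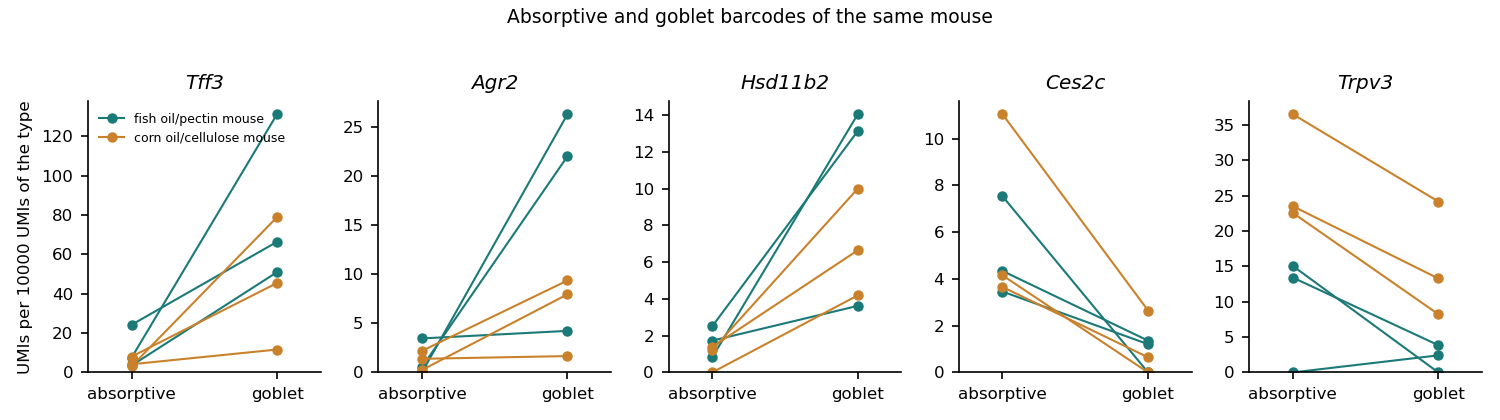
UMIs per 10000 UMIs of the type for 5 genes outside the rule, absorptive barcodes left and goblet barcodes right, with 1 line per mouse (fish oil/pectin mice 2 to 4 and corn oil/cellulose mice 2 to 4). Tff3, Agr2 and Hsd11b2 are lower in absorptive barcodes in 6 of 6 mice, Ces2c is higher in 6 of 6, and Trpv3 is higher in 5 of 6.

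Clec2h was also lower in members than in goblet barcodes, in 6 of 6 mice, with 142 against 314 UMIs and a log2 fold change of -1.60 ± 0.33. Saa1, Prdx6, Tgm3, Atp12a and Fth1, which were higher in members than in crypt-type barcodes, had log2 fold changes of 0.04, 0.35, 0.64, -0.15 and 0.25 against goblet barcodes, and none of the 5 passed there. Of 12 tested other surface colonocyte genes 6 lay above and 6 below 0 against goblet barcodes, and Tff3 and Clec2h passed, both lower. The number called was 34 when fish oil/pectin mouse 2 was left out, 25 when mouse 3 of that diet was, and 2 (Tff3 and Clec2h) when its mouse 4 was. It was 1, Tff3, when corn oil/cellulose mouse 4 was left out. With no filter on low counts neither Ces2c nor Trpv3 passed.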

How the data were processed

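The files hold unnormalised UMI counts for 19065 genes, deposited by the authors, and the submitters' processing notes name Cell Ranger 8.0.0 and the builds mm10 and GRCm39. Members and gene lists were chosen with earlier results of these data known. No doublet caller was run, and mixed or the deepest barcodes were left out as alternatives. Counts were summed per mouse over members and tested in R 4.3.3 by the robust quasi-likelihood F test of edgeR 4.0.16 after TMM scaling, with Benjamini-Hochberg adjustment, for genes passing filterByExpr at min.count 5. Mice with at least 10 barcodes of a type entered, and type comparisons had the mouse as a block and left out rule, haemoglobin and mitochondrially encoded genes. DESeq2 1.42.0 and limma 3.58.1 were alternatives. Named genes were the 8 of smallest p per direction between diets, up to 12 called genes per direction between types, the list members of smallest p, the genes leading by level, and genes fixed by name. Scripts were tested on simulated counts. Intervals and floors cover counting error only. Some genes are not reported here. The interaction with crypt-type barcodes was replaced by goblet barcodes. No library was a copy of another.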

Additional observations from a re-analysis of the deposited data

Results flagged for a closer look

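In groups of 4 mice, 32 groups of values were checked for a single mouse far from the others, where chance flags about 1 in 20, and 3 were found. The median depth of members was 544 UMIs in fish oil/pectin mouse 4, against 230 in the next mouse of that diet. Car1 stood at 50.3 per 10000 member UMIs in corn oil/cellulose mouse 1, which has 5 members, against 8.30 in the next mouse of that diet. Clec2h stood at 51.7 per 10000 in fish oil/pectin mouse 1, which has 6 members, against 15.7 in the next.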

How the results depend on the processing

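The count of 0 genes between diets held in 21 of 30 alternatives. It became 3 without rule, haemoglobin and mitochondrially encoded genes (Ceacam1, Clec2h and Slc13a2) and 1 with DESeq2, a minimum count of 3 or members thinned to the lowest mouse (Car1 each time), with all 8 mice or members of at least 200 UMIs (Clec2h), and with an absorptive sum of at least 2 (Slc13a2). Leaving out a mouse gave 0 to 1, the 1 being Car1 without fish oil/pectin mouse 3 or 4. An absorptive sum of at least 5 and a depth of at least 200 UMIs each left too few mice with 10 members, and all mice with a member were used. The Clec2h calls at 200 UMIs and with all 8 mice thus both take in fish oil/pectin mouse 1. Mouse numbers did not pair the libraries (correlation of same-numbered mice -0.03, 0.04 and 0.07), and with the number as a replicate block the count was 0. The share difference of 1.91 points was -0.856 over all deposited barcodes, and from -3.93 (without fish oil/pectin mouse 4) to 5.81 without single mice, including -3.13 without corn oil/cellulose mouse 1. Against crypt-type barcodes the count of 109 was 35 at a minimum count of 10, 12 with DESeq2, 46 in barcodes of 100 to 1000 UMIs, 2 with all mice holding both types (15 genes tested) and 5 to 182 without single mice. Against goblet barcodes the count of 14 was 34 with no count filter, 9 with DESeq2, 4 with all mice and 1 to 34 without single mice. The interaction stayed at 0 in its 8 alternatives. It was planned against crypt-type barcodes and not run there. The cause of these changes was not tested.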
